A study of Mus musculus with 8 samples.

Results

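The regions described here are the chromatin immunoprecipitation sequencing (ChIP-seq) peaks within 50 kb of 5 mouse pigment genes, Tyr, Tyrp1, Dct, Pmel and Mlana, in a melanocyte line. The genes were chosen by name, with earlier results of these data known, and the peaks around them were taken by position alone. Of the 311378 peaks in 6 lists, 378 lay within these windows. In replicates 1 and 2 these were 14 and 23 SOX10 peaks, 150 and 141 H3K27ac peaks, and 28 and 22 H3K27me3 peaks. The windows were 167 kb for Tyr, 118 kb for Tyrp1, 140 kb for Dct, 107 kb for Pmel and 111 kb for Mlana, 643 kb in all, and no peak fell in more than 1 window. The study profiled the transcription factor SOX10 and the histone marks H3K27ac and H3K27me3 in 2 libraries each, from independent experiments per the labels' protocols, with 2 input libraries as background. All 8 samples came from melan-Ink4a-Arf-1 (melan-a), a single immortalised line from normal embryonic skin with the genotype Cdkn2a tm1RDp/tm1RDp. Every culture was grown with 10% fetal bovine serum, 200 nM of the phorbol ester TPA (12-O-tetradecanoylphorbol 13-acetate) and 200 pM cholera toxin, so all groups share these agents and the Cdkn2a genotype. The line is 1 culture source, and the replicates therefore measure the spread between experiments and not between animals. Peak lists hold no expression values, so the melanocyte label could be set only against the chromatin of the 5 genes themselves, which are defining genes of that cell type.

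The 5 genes encode the machinery of the melanosome, the organelle in which melanocytes make pigment. Tyrosinase (Tyr) catalyses the first, rate-limiting step from tyrosine to melanin. Tyrp1 and Dct (dopachrome tautomerase, also called Tyrp2) are related enzymes that act later in eumelanin synthesis. Pmel forms the amyloid fibrils on which melanin is laid down, and Mlana (MART-1) is a melanosomal membrane protein needed for Pmel maturation. SOX10 is a high-mobility-group factor of the neural crest that binds motifs around ACAAAG or ACAATG, acts upstream of the master regulator MITF and is known to act with it on pigment genes. MITF binds E-boxes such as CATGTG, the core of the M-box in pigment gene promoters. H3K27ac marks active promoters and enhancers, and H3K27me3, laid down by Polycomb repressive complex 2, marks repressed chromatin.

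The promoters are shown first because acetylation lay over the starts of Tyr, Tyrp1 and Dct and, at Dct, SOX10 in both replicates. RefSeq entries of the GRCm38.p6 build, 250 bases before to 50 after the annotated start, were matched for 3 of the 5 genes, namely Tyr, Tyrp1 and Dct. Their coordinates belong to that build and cannot be set against the mm9 positions of the peaks used everywhere else. Capitals mark every match on either strand. The SOX motif searched was ACAAAG, which reads CTTTGT on the opposite strand. Its variant ACAATG appears there as CATTGT. The E-box CATGTG appears there as CACATG, and the other E-box searched, CACGTG, is the same on both strands. None of these matches overlapped another. The sequences run 5′ to 3′ along each gene and lie at chr7:87493463-87493762 (minus strand) for Tyr, chr4:80833963-80834262 (plus strand) for Tyrp1 and chr14:118052197-118052496 (minus strand) for Dct.
Tyr: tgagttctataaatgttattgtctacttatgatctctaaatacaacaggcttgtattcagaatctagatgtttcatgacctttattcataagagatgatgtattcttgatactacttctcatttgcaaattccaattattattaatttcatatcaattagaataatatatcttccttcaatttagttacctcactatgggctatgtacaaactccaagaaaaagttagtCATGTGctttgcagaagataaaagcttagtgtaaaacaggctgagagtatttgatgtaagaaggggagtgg
Tyrp1: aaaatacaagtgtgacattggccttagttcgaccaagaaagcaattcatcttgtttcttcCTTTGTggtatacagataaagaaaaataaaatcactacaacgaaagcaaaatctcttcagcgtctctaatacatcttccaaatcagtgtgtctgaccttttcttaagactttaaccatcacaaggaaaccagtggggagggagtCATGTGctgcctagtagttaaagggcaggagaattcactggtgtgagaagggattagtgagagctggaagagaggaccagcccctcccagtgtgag
Dct: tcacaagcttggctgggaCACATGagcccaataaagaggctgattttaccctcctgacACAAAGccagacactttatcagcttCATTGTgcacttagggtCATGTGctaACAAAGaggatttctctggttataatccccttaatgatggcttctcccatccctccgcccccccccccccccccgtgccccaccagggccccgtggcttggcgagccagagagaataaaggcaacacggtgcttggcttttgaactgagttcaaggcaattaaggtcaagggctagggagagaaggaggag

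CATGTG was present in all 3 promoters, once in Tyr at bases 230 to 235 and once in Tyrp1 at bases 205 to 210, counted from 1 at the 5′ end. Dct held it in both orientations, at bases 101 to 106 and, as CACATG, at bases 19 to 24. ACAAAG was found at bases 59 to 64 and 110 to 115 of Dct, and as CTTTGT at bases 61 to 66 of Tyrp1. Dct also held 1 ACAATG match, as CATTGT at bases 84 to 89, which brought its total to 5 motif matches against 2 in Tyrp1 and 1 in Tyr. Of all 32851 RefSeq promoters of this length, 14.2% held CATGTG, 18.7% ACAAAG, 12.6% ACAATG and 7.15% CACGTG, which none of the 3 held. A match describes letters in this window and is no measured binding site.

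SOX10 was found near 4 of the 5 genes in both replicates, and each of those 4 had 1 site among the top 10% of all SOX10 sites by fold enrichment, which began at 19.8. Peaks of both replicates that shared at least 1 bp were merged and are called sites for SOX10 and regions for the histone marks. The 5 windows held 9 SOX10 sites, 4 at Tyrp1, 3 at Dct, 1 at Tyr, 1 at Pmel and 0 at Mlana. Per 100 kb of window this was 3.39 at Tyrp1, 2.14 at Dct, 0.935 at Pmel and 0.599 at Tyr, where the 4159 SOX10 sites of the series came to 0.218 per 100 kb of the genome size the authors set. Of the 9 sites, 8 had a fold enrichment above the series median of 11.2. Fold enrichment here means the ratio that the authors' peak caller gives for tags (sequenced fragment ends) at a summit over the input background. Where a merged region held several peaks of a replicate, the highest of their fold enrichments was taken for that replicate. The values of both replicates can therefore come from different places in a histone mark region, and wide regions can gain from it. Each of the 9 SOX10 sites held 1 peak of each replicate. Of the 14 SOX10 peaks of replicate 1 in the windows, 9 were found again in replicate 2 (64.3%, beside 65.4% of all replicate 1 peaks). Of the 23 peaks of replicate 2, 9 were found in replicate 1 (39.1%, beside 43.6% of all), so both shares were near those of the whole lists. Replicate 1 kept 6440395 tags after 55% were removed as redundant, and replicate 2 kept 8985699 after 38%, and the part of this difference in the lists was not tested. No test across libraries was made: with 2 libraries an antibody and lists called separately, values of both replicates are given side by side.

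**Figure D1:**
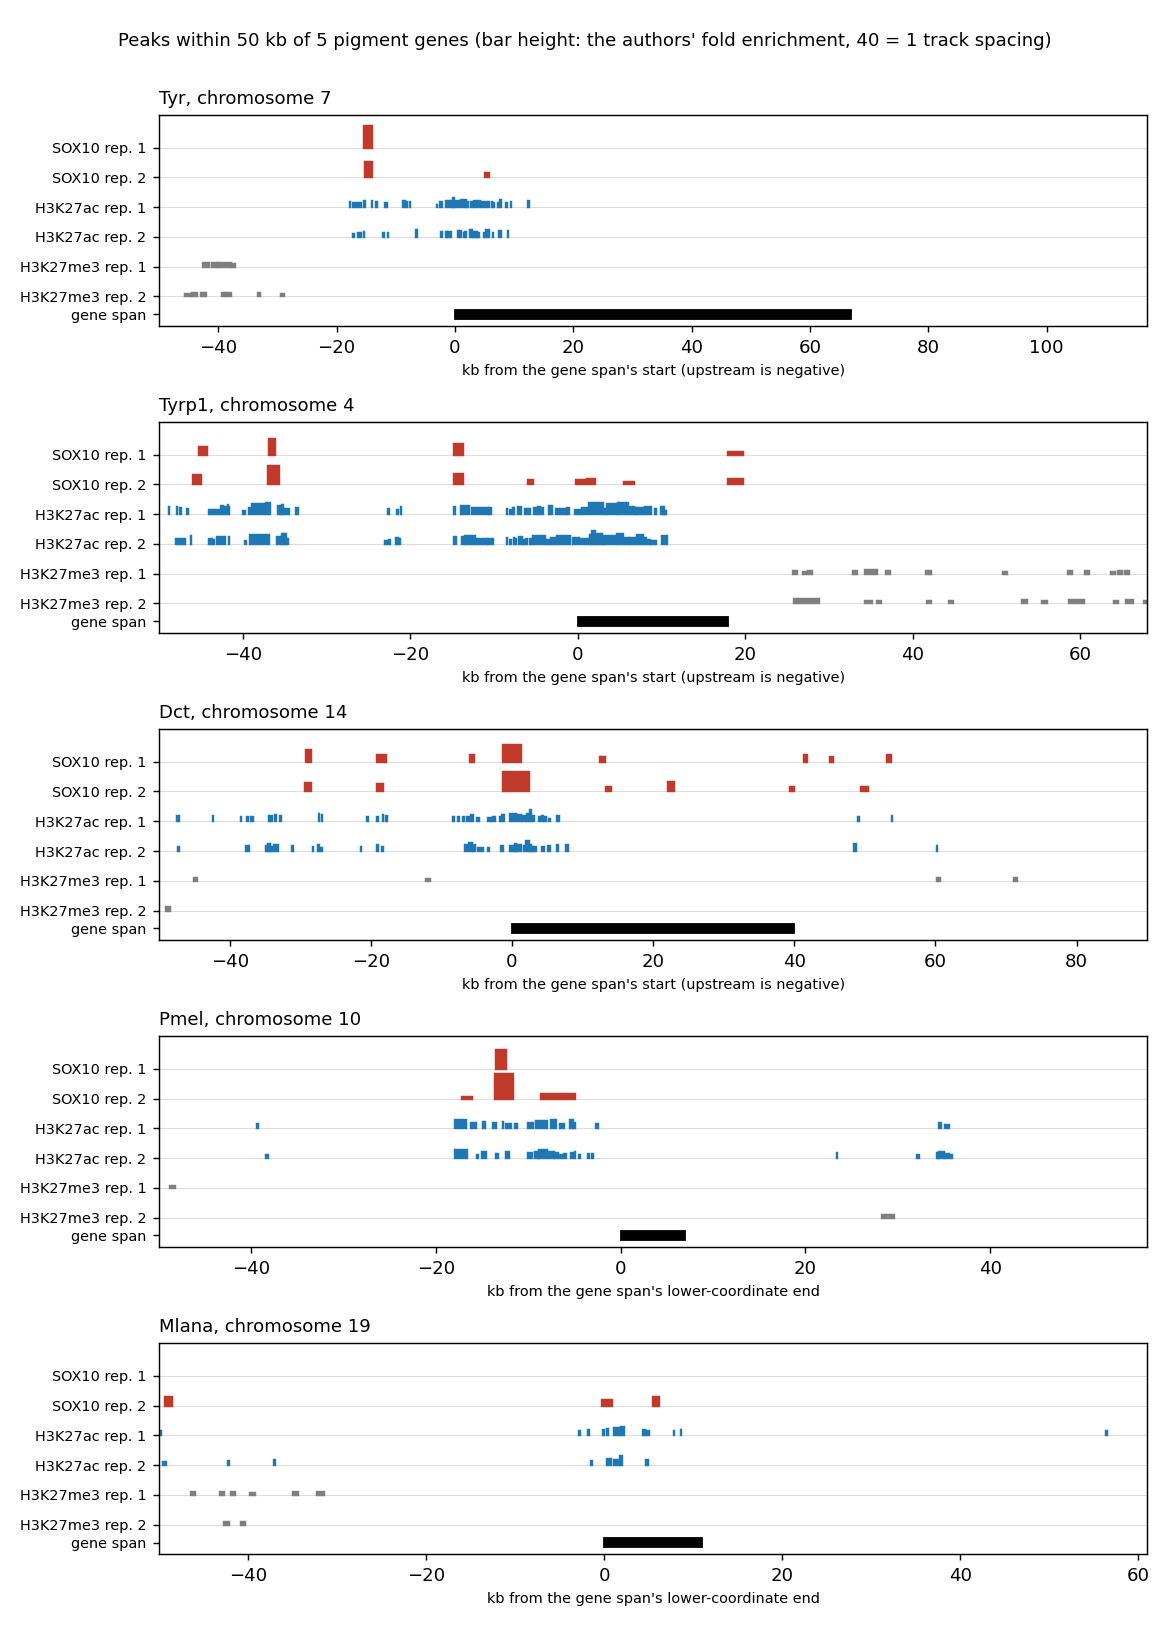
Peaks of the 6 lists within 50 kb of each gene span (black bar), plotted by distance in kb from the span's start for Tyr, Tyrp1 and Dct (upstream negative) and from its lower-coordinate end for Pmel and Mlana. Bar width is the peak and bar height its fold enrichment in that library, on 1 scale where 40 fills the spacing between tracks. SOX10 (red) has its tallest bars at Tyr, Tyrp1, Dct and Pmel and no bar in replicate 1 at Mlana. H3K27ac (blue) gathers over the starts of Tyr, Tyrp1 and Dct and the lower-coordinate end of Mlana, while H3K27me3 (grey) touches no gene span.

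At Tyr a single strong SOX10 site lay well upstream of the gene. Tyr is read on the minus strand of chromosome 7, and its span in mm9, given to whole kilobases as for the other genes, runs from 94575000 to 94642000. RefSeq places 1 other coding gene, Nox4, within 50 kb, on the downstream side. The site covered chr7:94655926-94657468 and its summit lay 14.7 kb upstream of the span's start. Replicate 1 gave a fold enrichment of 30.51 with 61 tags and replicate 2 of 22.16 with 93 tags, a mean of 26.3 ± 5.90 (SD, n = 2). Per 1000000 kept tags the counts were 9.47 and 10.3, so replicate 1 was higher by fold and replicate 2 slightly higher by tags. The summits of both replicates were 78 bp apart, and 97.0% of all SOX10 sites had a lower fold enrichment. A distal enhancer upstream of Tyr is known from transgenic work, and whether it is this site was not tested here. The only other SOX10 peak in the window was a weak one in replicate 2, inside the gene 5.35 kb past its start, with 18 tags and a fold enrichment of 7.03. Outside the window the next SOX10 peak was 269 kb away in replicate 2 and 698.9 kb away in replicate 1.

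Acetylation at Tyr formed a stretch over the gene's start and a smaller group of regions beside the SOX10 site. The window held 12 H3K27ac regions, with fold enrichments from 6.30 to 10.5 and widths from 256 to 1800 bp. Of the 12, 6 overlapped the gene span, all within 7.80 kb of its start, and 6 lay upstream. When regions less than 1 kb apart were joined, 8 regions formed a stretch of 10.5 kb, from 7.80 kb inside the gene to 2.67 kb upstream, wider than 98.9% of the 19832 joined stretches of the series. The region at the start itself, chr7:94641306-94642065, had fold enrichments of 9.17 and 9.38. The highest and widest region, chr7:94637767-94639566, had 9.87 and 11.14 in replicates 1 and 2. Those values came from summits 998 bp apart. Replicate 2 had 8.57 beside the replicate 1 summit, and replicate 1 had 8.74 beside the replicate 2 summit. By the highest peak of each replicate, both regions were above the median of 8.62 over all H3K27ac regions. At the SOX10 site, a region of 256 bp at chr7:94657255-94657510 had 10.00 and 8.35 and began 530 bp from the SOX10 summit.

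Tyrp1 had the most SOX10 sites and by far the most acetylated sequence of the 5 genes. Its span runs from 80480000 to 80498000 on the plus strand of chromosome 4, and RefSeq places no other coding gene within 50 kb of it. Of its 4 SOX10 sites, 3 lay upstream and 1 at the 3′ end of the span. The strongest, chr4:80442901-80444303, with its summit 36.5 kb upstream, had fold enrichments of 22.47 and 26.59 on 40 and 76 tags (24.5 ± 2.91, SD, n = 2), above 95.6% of all sites. The site nearest to the start, chr4:80465079-80466343, with its summit 14.4 kb upstream, had 15.81 and 15.68 on 73 and 97 tags (15.7 ± 0.0919, SD, n = 2). That was a lower fold with more tags than at the strongest site, in both replicates. An enhancer upstream of Tyrp1 with SOX10 motifs is known from earlier work, and whether it is either site was not tested.

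The remaining Tyrp1 sites were weaker. The farthest, chr4:80433945-80435770, about 45.2 kb upstream, had fold enrichments of 11.86 and 14.47, with the summits of both replicates 488 bp apart. The site over the 3′ end of the gene, chr4:80497781-80499704, had 5.55 and 8.33 (6.94 ± 1.97, SD, n = 2) and was the only 1 of the 9 sites below the series median, above just 10.2% of all sites. Its summits were 959 bp apart, the largest distance among the 9 sites. Replicate 2 alone had 4 more peaks, 1 of them over the start of the gene (summit 0.160 kb inside, fold enrichment 7.60, 30 tags) and others 1.67 and 5.81 kb inside and 5.58 kb upstream. Their fold enrichments ran from 4.69 to 8.31, and replicate 1 had no peak at any of these 4 places. The next SOX10 peak beyond the window was 178.61 kb away in replicate 1 and 178.56 kb away in replicate 2.

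The Tyrp1 window held 29 H3K27ac regions, which covered 24.6% of it, where regions covered 1.24% of chromosome 4. Peaks of single replicates covered 22.2% and 23.7% of the window. The region with the highest fold enrichment lay over the start, chr4:80479334-80483047, with 16.15 and 18.82 in replicates 1 and 2 (17.5 ± 1.89, SD, n = 2). It held 3 and 6 peaks in replicates 1 and 2, of which the highest counted. By that measure it ranked 64 of the 36655 H3K27ac regions by fold enrichment, and it ranked 134 by width. The neighbouring region inside the gene, chr4:80483072-80487578, was 4507 bp wide, which ranked 50, and had 15.74 and 14.57. Joined over gaps under 1 kb, 13 regions formed a stretch of 19.2 kb, from 8.58 kb upstream to 10.6 kb inside the gene, which ranked 33 among the 19832 joined stretches. Another 2 wide regions lay at SOX10 sites: chr4:80465974-80469867 with 11.85 and 12.11, and chr4:80440663-80443237 with 16.61 and 12.86. No H3K27ac region of this window lay beyond the gene's 3′ end, and past the 3′ SOX10 site the next region was 1650526 bp away.

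Dct carried the broadest SOX10 site of the 5 genes, directly over its start. Its span runs from 118411000 to 118451000 on chromosome 14, read on the minus strand. The site covered chr14:118448565-118452471, 3907 bp that lay on both sides of the start, and its summit was 0.770 kb upstream. Replicate 1 gave a fold enrichment of 24.41 with 118 tags and replicate 2 of 27.13 with 191 tags (25.8 ± 1.92, SD, n = 2). These were the highest tag counts of any SOX10 peak in the 5 windows, 18.3 and 21.3 per 1000000 kept tags, and the summits of both replicates were 38 bp apart. Of all SOX10 sites, 96.6% had a lower fold enrichment, and it ranked 14 by width. The authors' FDR of its peaks was 7.69% in replicate 1 and 6.25% in replicate 2, so a limit of 5% removes the site and leaves 14.7 as the highest mean fold enrichment at Dct. This FDR did not order peaks by strength. A weaker Dct site, 18.9 kb upstream, had 0.46% and 3.44% in replicates 1 and 2. Its -log10 p times 10 was 133.24 and 69.73, against 477.22 and 649.91 at the start. The promoter printed above, which held both SOX motifs and CATGTG, belongs to this gene, but its position within the site was not analysed because the builds differ.

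Another 2 sites, weaker than the first, lay upstream of Dct. The site at chr14:118468848-118470285 had fold enrichments of 10.54 and 12.03, with summits 806 bp apart, and the site at chr14:118479426-118480393 had 16.64 and 12.66, with summits 15 bp apart. Their summits were 18.9 and 28.9 kb upstream. A further 5 peaks were found only in replicate 1 and 4 only in replicate 2, more than at any other of the 5 genes. They had fold enrichments from 6.73 to 14.04, and the highest of them, in replicate 2, lay inside the gene 22.5 kb past its start. From 12.8 kb inside the gene to beyond its 3′ end no peak was shared, the closest being 12.8 kb inside in replicate 1 and 13.8 kb inside in replicate 2. Gpc6 is the coding gene that RefSeq places within 50 kb on that side. Beyond the window the next SOX10 peak was 634.67 kb away in replicate 1 and 634.72 kb in replicate 2.

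Of the 20 H3K27ac regions at Dct, 7 overlapped the gene and 13 lay upstream, with none downstream. They covered 9.01% of the window, beside 0.641% of chromosome 14. The region over the start, chr14:118449709-118451438, had fold enrichments of 11.35 and 10.53 in replicates 1 and 2. These came from summits 635 bp apart, and the replicate 2 peak at the replicate 1 summit had 7.68. The highest mean, 13.1, came from a region of 256 bp at chr14:118448287-118448542 on which the replicates differed most, with 16.80 and 9.38 (SD 5.25, n = 2). The widest region, chr14:118456280-118458125, lay 5.28 kb upstream and had 10.21 and 11.83. The SOX10 peak of replicate 1 at 5.75 kb upstream had its summit inside this region, and replicate 2 had no peak there. A joined stretch of 8.56 kb ran from 6.72 kb inside the gene to 1.84 kb upstream and was the only longest stretch of the 5 genes to include a SOX10 site of both replicates.

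Near Pmel lay the most enriched SOX10 site of the 5 windows. The span used runs from 128150000 to 128157000 on chromosome 10. It is 7 kb long, whereas the RefSeq gene in GRCm38 is 24.4 kb and overlaps the records of Cdk2, Rab5b and Dgka. The span may therefore leave out part of Pmel. RefSeq also places Ikzf4 and Suox within 50 kb on the lower-coordinate side and Pym1 on the other. Peaks beside the span may belong to any of these genes. The spans of the other 4 genes were within 2 kb of their RefSeq lengths. The site, chr10:128136243-128138349, lay 11.7 kb from the span on the side of lower coordinates. Its fold enrichment was 26.48 on 44 tags in replicate 1 and 33.96 on 107 tags in replicate 2 (30.2 ± 5.29, SD, n = 2). It was above 98.2% of all SOX10 sites, with the summits of both replicates 35 bp apart. Replicate 2 had 2 further peaks. One, chr10:128141209-128145013, was 3805 bp wide and held 146 tags at a fold enrichment of only 7.53, and the other, chr10:128132739-128133914, held 52 tags at 3.88. Both combined many tags with a low fold enrichment. The next SOX10 peak outside the window was 85.86 kb away in replicate 1 and 122.15 kb in replicate 2.

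No H3K27ac region overlapped the Pmel span, the only span of the 5 without one. Instead 10 of the 12 regions lay at lower coordinates, between 4.93 and 16.6 kb from the span, around the SOX10 site, and 2 lay more than 27 kb away on the other side. The most enriched and widest, chr10:128131919-128133385, had fold enrichments of 12.30 and 11.86. The longest joined stretch was 5.20 kb, from chr10:128139879 to 128145073, and the wide SOX10 peak of replicate 2 lay within its bounds. Regions covered 8.34% of the window, beside 0.985% of chromosome 10.

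Mlana differed from the other 4 genes in having no SOX10 peak in replicate 1. Its span runs from 29772000 to 29783000 on chromosome 19. RefSeq places Ermp1 within 50 kb on the lower-coordinate side and 9930021J03Rik on the other. Replicate 2 had 3 peaks: at chr19:29771630-29772888, over the lower-coordinate end of the span, with 35 tags and a fold enrichment of 9.14, at chr19:29777360-29778112 inside it with 31 tags and 12.37, and at chr19:29722578-29723424 with 30 tags and 12.33. The first was above 51.0% of all replicate 2 peaks by fold and the second above 76.7%. The third lay 48.58 kb from the span, just inside the limit of 50 kb, and the nearest peaks outside it were 96.2 kb away in replicate 2 and 126.47 kb in replicate 1. A count of 0 in replicate 1 means that no peak passed the authors' cutoff in the library with fewer kept tags, and the difference was not tested.

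Acetylation at Mlana was limited in extent and lay at the lower-coordinate end of the gene. All 3 regions of the window overlapped the span. The most enriched and widest, chr19:29772973-29774183, had 13.04 and 13.71 (13.4 ± 0.474, SD, n = 2), above 97.3% of all H3K27ac regions. Beside it, chr19:29772212-29772822 had 10.49 and 9.43, and chr19:29776209-29777047 had 8.74 and 8.57. The SOX10 peak of replicate 2 over that end of the span overlapped the second of these regions. Regions covered 2.40% of the window and 1.28% of chromosome 19, the smallest ratio of the 5 genes at 1.88, where Tyrp1 had 19.9, Dct 14.1, Pmel 8.46 and Tyr 5.36.

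**Figure D2:**
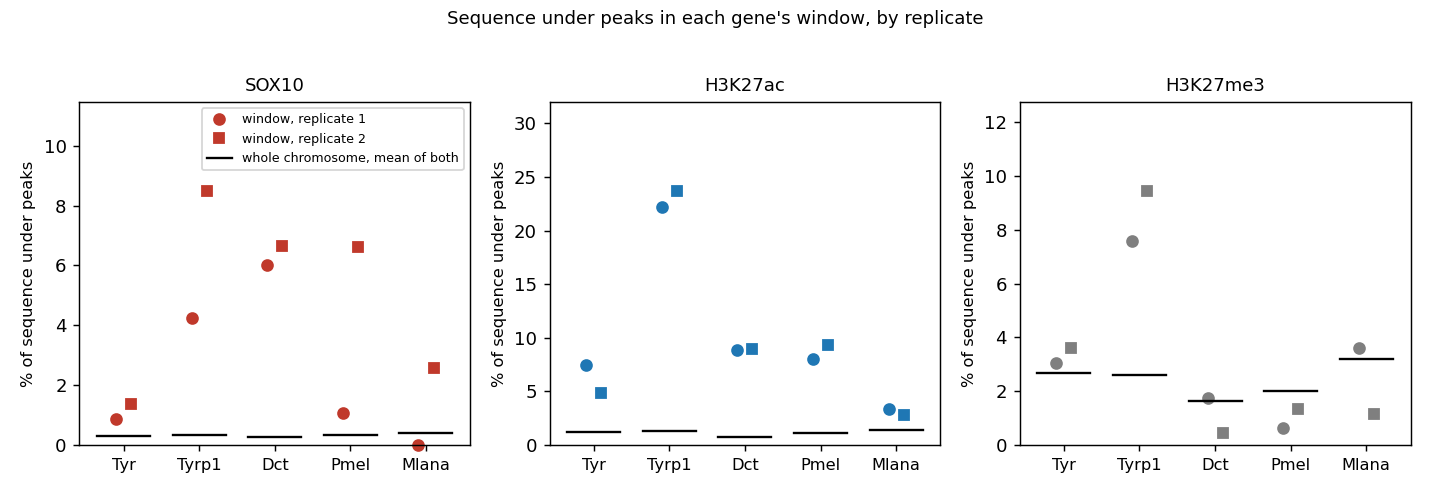
Percent of sequence under peaks in each gene's window, for replicate 1 (circles) and replicate 2 (squares), with the black line at the mean of both replicates over the whole chromosome up to its last peak. Each panel has its own axis from 0. In H3K27ac both replicates lie above the line at all 5 genes, highest at Tyrp1 (22.2% and 23.7%), and in H3K27me3 only Tyr and Tyrp1 have both replicates above it.

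At the 9 SOX10 sites the summits lay outside the acetylated regions. Of the 9 sites, 6 overlapped an H3K27ac region (percent over all 4159 sites: 53.2), but the summit lay in a region at 0 of 9 (16.1 over all sites). With only 9 sites, a count of 0 is not far from that share. Recounts of the same 9 loci gave 0 of 9 summits under a peak of H3K27ac replicate 1 and 0 of 9 under a peak of replicate 2. Taking the summit of each replicate's own peak, 0 of 18 lay in a region. Shares over all SOX10 sites were not computed for these recounts. At 5 of the 9 sites a region lay within 1 kb on both sides of the uncovered summit, which was true of 20.9% of all SOX10 sites. These were the strongest sites of Tyrp1, Dct and Pmel, the Tyrp1 site at 14.4 kb and the Dct site at 18.9 kb upstream, and the acetylation gaps around their summits were 395 to 760 bp long. This count used the summit of the replicate with the higher fold enrichment. For the Dct site at 18.9 kb that was replicate 2, and the replicate 1 summit, chr14:118469069, lay 806 bp away. On its lower-coordinate side the nearest region ended at 118458125, so by replicate 1 this site was not flanked on both sides. At the strongest Dct site the regions ended 336 bp and began 416 bp from the summit, and at the Pmel site 211 and 523 bp. Tyr had a region 530 bp away on the upstream side but the next on the other side was 2363 bp away. Regions need a peak in both replicates. H3K27ac replicate 1 alone had a nearer peak on that side of the Tyr summit, chr7:94655984-94656197 (fold enrichment 9.21). It also had 1 inside the Pmel gap, chr10:128137130-128137229 (9.56). The 9 sites share libraries and some share a gene, so these counts describe these loci and carry no test. H3K27ac peaks were called with a modelled fragment length of 50 and 51 bp, near the tag length of 51 bp, and its part in these gaps was not tested.

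**Figure D3:**
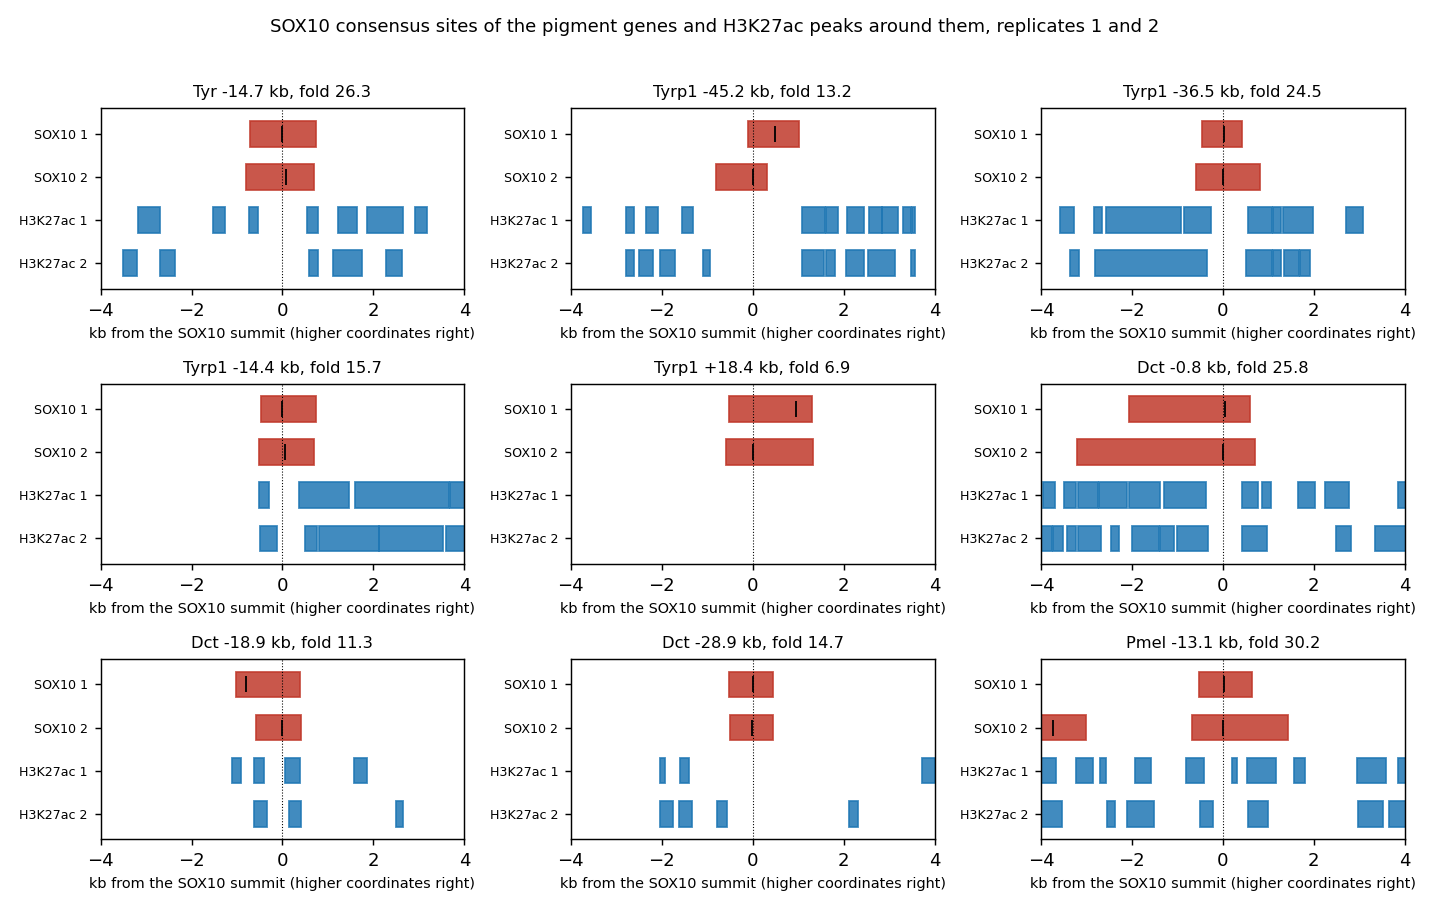
SOX10 peaks (red, summit as a black tick) and H3K27ac peaks (blue) of both replicates within 4 kb of the summit of each of the 9 SOX10 sites. Titles give the gene, the distance of the summit from the span's start (at Pmel, its lower-coordinate end) and the mean fold enrichment. The dotted line at 0 crosses no H3K27ac peak in any panel, and at the strongest Dct, Pmel and Tyrp1 sites blue bars stand on both sides of it.

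The fold enrichment of the 9 sites ran from 6.94 at the 3′ end of Tyrp1 to 30.2 at Pmel. In descending order the strongest site of each gene had 30.2 ± 5.29 at Pmel, 26.3 ± 5.90 at Tyr, 25.8 ± 1.92 at Dct and 24.5 ± 2.91 at Tyrp1 (SD, n = 2). Neighbours in this order differed by less than their SDs, and replicate 1 alone put Tyr first while replicate 2 put Pmel first. By tags per 1000000 kept the order was another, with the Dct site far ahead (18.3 and 21.3), which was also the widest. Replicate 2 had the higher fold enrichment at 6 of the 9 sites. At 6 of the 9 the replicates placed the summit within 100 bp of each other. For these last 2 counts the share over all SOX10 sites was not computed.

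**Figure D4:**
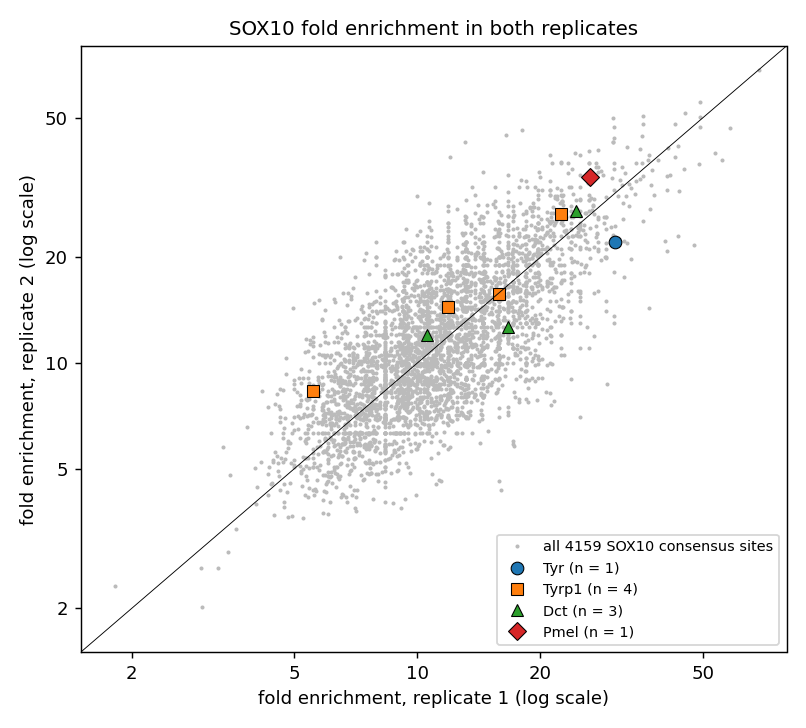
Fold enrichment of all 4159 SOX10 sites (grey points) in replicate 1 (x axis) and replicate 2 (y axis), both on log scales, with the line of equal values. Coloured symbols are the 9 sites near Tyr, Tyrp1, Dct and Pmel, of which 4, 1 for each gene, lie in the upper right with mean folds of 24.5 to 30.2, and the lowest, at Tyrp1, has 5.55 and 8.33.

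Peaks found in 1 SOX10 replicate only lay both inside and outside the genes. There were 19 of them, 5 in replicate 1 and 14 in replicate 2, with fold enrichments of 8.32 to 10.92 and 3.88 to 14.04. Over a gene span lay 10 of them, 4 at Dct, 3 at Tyrp1, 2 at Mlana and 1 at Tyr, and 2 of the 9 sites of both replicates did so. How often such peaks lie over genes in the whole lists was not computed. H3K27ac regions overlapped 1 of the 5 in replicate 1 (percent over all such peaks: 30.6) and 8 of the 14 in replicate 2 (39.3). The summit itself lay in a region at 1 of the 5 (14.2 over all such peaks) and at 5 of the 14 (19.1).

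Seen from the acetylation, the 5 windows held 76 H3K27ac regions, 11.8 per 100 kb beside 1.96 over the genome. Density fell from 24.6 per 100 kb at Tyrp1 through 14.3 at Dct, 11.2 at Pmel and 7.19 at Tyr to 2.70 at Mlana. Of the 76, 12 overlapped a SOX10 site (9.66% of all regions did). Their median fold enrichment was 9.19 and median width 585.5 bp, beside 8.62 and 547 bp over all regions, and 46 of the 76 were above the median fold and 43 above the median width. Of the H3K27ac peaks in the windows, 105 of 150 in replicate 1 were found again in replicate 2 (70.0%, beside 64.0% over the whole list) and 113 of 141 in replicate 2 were found in replicate 1 (80.1%, beside 59.6%). The shares were 88.9% and 90.6% at Tyrp1, and 5 of 12 and 5 of 9 peaks at Mlana.

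The repressive mark stayed outside the 5 gene spans, of which the Pmel span may leave out part of that gene. No H3K27me3 peak of either replicate overlapped a gene span, and the share of all genes free of the mark was not computed. No SOX10 site overlapped an H3K27me3 region (percent over all sites: 1.32) and 0 of the 76 H3K27ac regions did (1.94 over all). Both counts were near the shares over the whole lists. Of the H3K27me3 peaks in the windows, 14 of 28 in replicate 1 (50.0%, beside 46.8% over the whole list) and 11 of 22 in replicate 2 (50.0%, beside 52.6%) were found in the other replicate. The windows held 9 H3K27me3 regions, 6 at Tyrp1, 2 at Tyr, 1 at Mlana and none at Dct and Pmel. Per 100 kb this was 5.08 at Tyrp1, 1.20 at Tyr and 0.901 at Mlana, beside 1.63 over the genome. Their fold enrichments, from 4.70 to 6.34, were close to the series median of 5.25, and 6 of the 9 lay above it. At Tyrp1 all 6 lay beyond the 3′ end, from 7.63 kb past the span, on the side where no H3K27ac region was found. The first, chr4:80505632-80508777, was 3146 bp wide and had 4.37 and 6.78 in replicates 1 and 2. They covered 9.43% of the Tyrp1 window, beside 2.01% of chromosome 4, with 7.58% and 9.44% in single replicates. The other windows were nearer to or below their chromosomes, with 2.70% beside 2.03% at Tyr, 1.02% beside 2.59% at Mlana, 0% beside 1.09% at Dct and 0% beside 1.22% at Pmel. At Tyr the pair lay 37.2 and 41.5 kb upstream, beyond the SOX10 site, and the wider, chr7:94679226-94682177, had 6.56 and 6.12. The Mlana region, 42.1 kb from the span, had 5.46 and 4.81. Dct had 4 peaks in replicate 1 and 1 in replicate 2, at different places, and Pmel had 1 in each, also at different places. H3K27me3 peaks were called without a local input background, so their fold enrichments cannot be set beside those of SOX10 and H3K27ac.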

How the data were processed

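Peak lists of 6 ChIP-seq libraries were used, grouped by the antibody and replicate number in the titles. The input libraries enter only as the authors' background. Per the file headers, the authors called peaks in each library with MACS 1.4.2 at a p cutoff of 1e-05, keeping at most 1 tag per position, with local input background (1000 and 10000 bp) for SOX10 and H3K27ac and none for H3K27me3. The submitters' processing notes name the build mm9. No aligner is named in the sources used here. The deposited tag counts are whole numbers. The authors' peak scores are -log10 of a p-value times 10, fold enrichment is a ratio over background, and FDR is given in percent, as the deposited column titles say. 1 damaged column title in 1 SOX10 list was read by position. Kept tags ranged from 6440395 in a SOX10 library to 71987481 in an H3K27me3 library, with 45583056 and 44416913 in the H3K27ac libraries. How depth limits each mark was not tested.

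Peaks were taken within 50 kb of the gene spans, replicates merged at an overlap of at least 1 bp, and coverage, ranks and distances computed with Python 3.11.15 and pandas 2.3.3. Overlap counting was tested on simulated peaks. Percentages over all sites or regions use the whole lists. Chromosome coverage uses the stretch up to the last peak. All 5 genes, every SOX10 site, and H3K27ac regions at gene starts, at SOX10 sites or of highest fold or width are named. Other windows, thresholds, overlaps and single replicates were tried. The genes and settings were chosen with earlier results of these data known. Other pigment genes were not analysed here, since no mm9 annotation was used. No likeness between genes was ranked, because peak lists give no level per gene.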

Additional observations from a re-analysis of the deposited data

How the results depend on the processing

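Leaving out 1 library and using all peaks of the other gave 14 to 23 SOX10 sites in place of 9, 141 to 150 H3K27ac regions in place of 76, 22 to 28 H3K27me3 regions in place of 9, 6 to 14 SOX10 sites at H3K27ac in place of 6, and H3K27ac coverage of 9.59% to 9.86% in place of 9.88%. Without SOX10 replicate 1 Mlana had 3 sites in place of 0. With only peaks whose -log10 p times 10 was at least 100, 5 SOX10 sites, 39 H3K27ac regions (7.29% coverage) and 3 H3K27me3 regions were left. A window of 20 kb held 2 H3K27me3 regions and an H3K27ac coverage of 15.1%, a window of 100 kb a coverage of 5.97%. Joining H3K27ac regions less than 1 kb apart gave 22 regions and 12.2%, and a replicate overlap of at least 50% of the shorter peak gave 9.32%. With the summit inside the region, 0 of 9 SOX10 sites lay at H3K27ac. An FDR of at most 5% removed the strongest Dct site (FDR 7.69% and 6.25%) and left a highest fold of 14.7 there. The causes of these moves were not tested beyond the change in what each setting counts. Of the 144 alternative values, 22 of those on the 5 genes together stayed within 1.5 times the main count or within 1 SD, and 19 moved. On single genes 73 stayed and 30 moved. A reversal could not be recorded by this rule. The SD of each fold came from the same 2 replicates, so a single replicate's fold at that site falls within it by construction. The SD for coverage came from the single-replicate values themselves. No paired analysis was possible because the results come from no test.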
